A study of Mus musculus with 6 samples.

Results

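The 10 chemokine ligand genes described here were measured by RNA sequencing in primary endothelial cells of the mouse liver sinusoid (LSECs), the vessels where blood meets hepatocytes. The set was Cxcl1, Cxcl2, Cxcl9, Cxcl10, Cxcl12, Cxcl16, Ccl2, Ccl5, Ccl7 and Cx3cl1, matched by gene symbol, and all 10 were among the 24421 symbols listed. The pressure group (n = 3) spent 8 h under hydrostatic pressure alternating, at 0.01 Hz, from a low of 101 kPa up to 135 kPa in absolute terms. The control group (n = 3) was labelled only as control, so its handling over those hours cannot be told apart from the lack of pressure. Cells of both groups came from livers of wild genotype, were picked with beads against CD146, an endothelial surface protein that other cells can carry, were plated overnight on collagen I and were serum-starved for 6 h. The age of the mice and whether the samples came from separate cultures or animals are not in the labels used here, so the p-values reflect sample-to-sample spread that may be technical.

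Chemokines are small secreted or membrane-tethered proteins that guide leukocytes by binding G-protein-coupled receptors, and they are held on endothelium by heparan sulfate. Inflammatory chemokines are typically switched on through NF-kB, a transcription factor released when its inhibitors are degraded, or through interferon signalling. Homeostatic ones are made at rest. In the liver, sinusoidal endothelium and Kupffer cells both make chemokines that draw neutrophils, monocytes and lymphocytes into the sinusoids.

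The deposited counts summed to 12922959 in the smallest library and 18655749 in the largest, and 12892 genes had enough to test. An adjusted p of 0.05 (edgeR's quasi-likelihood test) was passed by 68.8% of them. Pressure was higher for 33.7% and lower for 35.1%, so a call alone does not set a gene apart here. These are 4347 higher and 4524 lower genes, and with library totals only the split was 3129 higher and 5887 lower. All 9 LSEC markers listed were detected, and none rose while 6 fell; without pressure replicate 3, 2 rose. Their summed level, in CPM (counts scaled to a common library size, here with TMM factors), was 4928 to 5981 in pressure libraries and 6563 to 6993 CPM in control libraries. Macrophage transcripts were abundant too: 9 markers summed to 5833 to 6322 CPM under pressure and 6267 to 6708 CPM in controls, with 2 higher and 2 lower. The higher calls depended on the setting: none was made with library totals only, and 1 with upper-quartile factors, without the 50 most abundant genes (where 1 was lower) or without control replicate 3. Markers of other cells were scarcer. Summed dendritic cell markers were 9.17 to 11.8 CPM under pressure and 27.5 to 32.0 CPM in controls. Most of that gap came from Clec9a alone, at 1.43 ± 0.236 CPM under pressure and 19.5 ± 1.33 CPM in controls. Of 2 dendritic markers tested, only Clec9a passed. Neutrophil markers gave 4.42 to 6.06 CPM under pressure and 9.32 to 11.5 CPM in controls, with S100a9 and Retnlg at 0 in all libraries. Csf3r, the only neutrophil marker with enough counts to test, made up most of this (4.55 ± 0.65 CPM under pressure, 9.56 ± 1.09 CPM in controls). T and NK cell markers gave 2.37 to 3.34 CPM under pressure and 4.76 to 6.25 CPM in controls. Hepatocyte markers gave 13.7 to 17.5 CPM under pressure and 7.09 to 9.94 CPM in controls. Most of the hepatocyte sum was Alb, at 12.1 ± 1.54 CPM under pressure and 6.40 ± 1.55 CPM in controls. Stellate and mural cell markers gave 159 to 175 CPM under pressure and 141 to 152 CPM in controls. Of 6 stellate and mural markers tested, Dcn rose (132 ± 4.76 CPM under pressure and 104 ± 3.85 CPM in controls), a call lost when scaled by library totals. Des (-1.24 ± 0.20) and Acta2 (-1.16 ± 0.23) fell at low levels. Des stood at 2.09 ± 0.407 CPM under pressure and 4.90 ± 0.599 CPM in controls, and Acta2 at 1.22 ± 0.222 CPM under pressure and 2.70 ± 0.292 CPM in controls. The part that a shift in cell make-up plays in the ligand levels was not tested, and in bulk RNA fewer cells of a type and less RNA per cell cannot be told apart.

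Of the 10 ligands, 6 rose under pressure, 1 fell and 3 did not pass the test. Among all genes tested, 33.7% were higher and 35.1% lower, or 68.8% in either direction, so the share called was near that of all genes. The 6 risers were Cxcl2, Cxcl1, Ccl2, Cxcl10, Ccl7 and Cxcl12, and the single fall was Cxcl16. The median log2 change was 0.68 over the 10 ligands and -0.02 over all genes tested. The 10 were chosen with earlier results of these data known, so this gap is not independent of the choice. Over 13 other chemokine ligands tested the median was 0.01. Of the risers, 4 changed at least 2-fold (Cxcl2, Cxcl1, Ccl2 and Cxcl10), a size that 9.64% of all genes tested reached in that direction. Cxcl9, Ccl5 and Cx3cl1 had overlapping groups, whereas the 3 pressure values of each of the other 7 ligands lay wholly above or wholly below the 3 control values. Such separation was seen for 71.9% of all genes tested, with pressure above control for 34.9% and below it for 37%. Levels below are CPM, and changes are log2 pressure over control with their standard error.

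**Figure D1:**
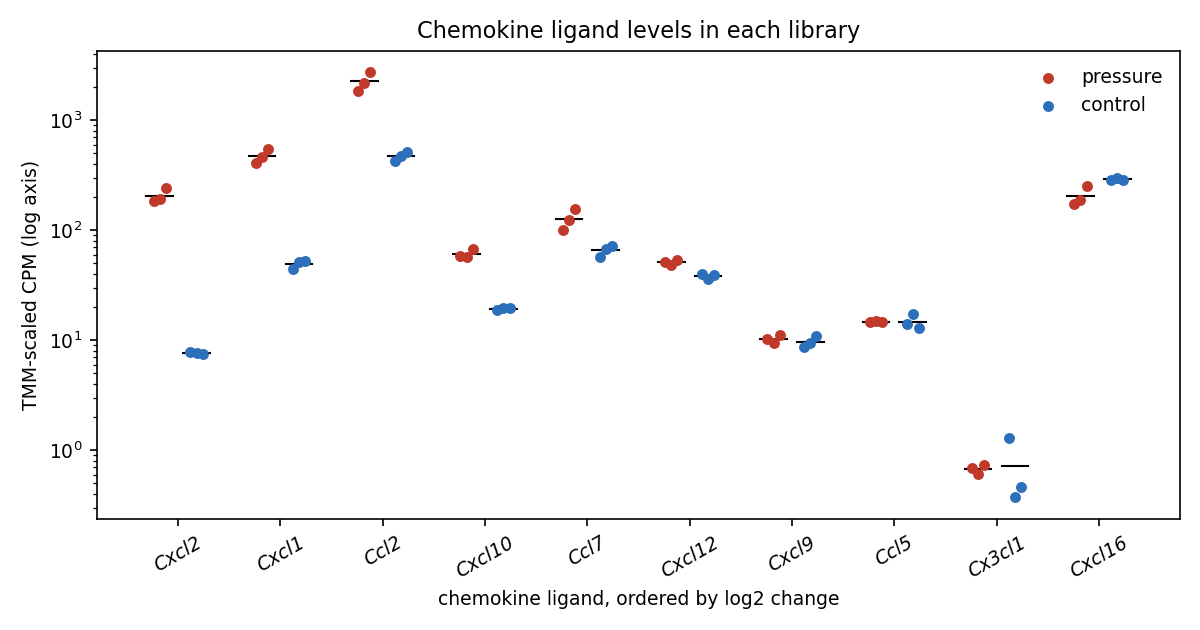
Level of each ligand in each library as TMM-scaled CPM on a log axis, ligands ordered by their log2 change, pressure libraries (red) left of control libraries (blue), black lines marking group means. The pressure points of Cxcl2, Cxcl1, Ccl2 and Cxcl10 stand far above their control points, those of Cxcl9 and Ccl5 lie among them, and Cx3cl1 sits near 1 CPM in all 6 libraries.

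Cxcl2 and Cxcl1, ligands of Cxcr2, the main chemokine receptor of neutrophils, had the largest log2 changes of the 10. Cxcl2 (also called MIP-2) stood at 186, 192 and 241 CPM in pressure replicates 1 to 3 and at 7.79, 7.73 and 7.47 CPM in controls. The highest control was only 1.04 times the lowest, and every pressure value lay far above them. It rose by 4.75 ± 0.13 (adjusted p = 1.10e-08), a 26.9-fold change with a 95% interval of 22.2 to 32.6. Only 0.116% of genes tested had a larger log2 change. Cxcl1 (also called KC), its close relative, stood at 406, 463 and 546 CPM under pressure and at 44.3, 51.7 and 52.7 CPM in controls. It rose by 3.25 ± 0.12 (adjusted p = 3.73e-08), with 0.566% of genes tested above it. Every pressure library held more Cxcl1 than any control did.

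Cxcl1 and Cxcl2 lie side by side on chromosome 5 of GRCm38 (the build also named mm10; GENCODE M21). Cxcl1 spans 90891241 to 90893115 and Cxcl2 spans 90903871 to 90905938, both on the plus strand and 10.8 kb apart. Each span is a whole protein-coding gene, exons and introns together. Cxcl9 (92321347 to 92328079) and Cxcl10 (92346638 to 92348889) form a second pair on the same chromosome, on the minus strand and 18.6 kb apart. The 250 bases upstream of the start site are shown for these 4 genes because 3 of them rose and Cxcl9 did not pass the test. Capitals mark matches to the NF-kB consensus on either strand, overlapping matches merged (RefSeq windows, GRCm38.p6, 5′ to 3′ along the gene's strand; the RefSeq starts of Cxcl1 and Cxcl2 lie slightly inside the GENCODE spans).
Cxcl1, plus strand, chr5:90890995-90891244: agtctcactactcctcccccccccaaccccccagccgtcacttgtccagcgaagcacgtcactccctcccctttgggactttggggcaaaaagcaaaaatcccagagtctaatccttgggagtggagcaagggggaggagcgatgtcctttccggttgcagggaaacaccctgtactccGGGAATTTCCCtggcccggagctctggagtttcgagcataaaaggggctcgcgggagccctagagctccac
Cxcl2, plus strand, chr5:90903649-90903898: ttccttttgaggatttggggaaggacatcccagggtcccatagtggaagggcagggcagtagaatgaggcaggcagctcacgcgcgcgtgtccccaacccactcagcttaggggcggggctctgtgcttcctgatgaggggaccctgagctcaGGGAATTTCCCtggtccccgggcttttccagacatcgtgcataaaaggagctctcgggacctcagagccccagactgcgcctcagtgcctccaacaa
Cxcl10, minus strand, chr5:92348890-92349139: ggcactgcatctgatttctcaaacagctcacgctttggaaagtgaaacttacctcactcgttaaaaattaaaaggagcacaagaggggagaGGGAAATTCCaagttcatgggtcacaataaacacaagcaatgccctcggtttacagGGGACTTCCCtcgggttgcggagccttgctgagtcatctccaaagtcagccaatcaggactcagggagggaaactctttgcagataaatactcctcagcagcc
Cxcl9, minus strand, chr5:92328080-92328329: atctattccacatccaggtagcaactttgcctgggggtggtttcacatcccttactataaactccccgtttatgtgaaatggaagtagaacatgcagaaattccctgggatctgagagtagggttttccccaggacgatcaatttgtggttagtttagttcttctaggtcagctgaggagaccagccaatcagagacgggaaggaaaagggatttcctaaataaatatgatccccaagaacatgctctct

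The Cxcl1 and Cxcl2 windows held the same 11 letters, GGGAATTTCCC, at positions -71 to -61 and -97 to -87 from the start site. Cxcl10 held a pair of separate matches, GGGAAATTCC at -159 to -150 and GGGACTTCCC at -103 to -94. It also held a match to the interferon-stimulated response element at -213 to -204 and an AP-1 match (TGANTCA) at -74 to -68. None of these overlapped another motif. The NF-kB consensus scanned was GGGRNWYYCC (R is A or G, W is A or T, Y is C or T, N is any base), and near-matches were not counted. No full match was found in the windows of Cxcl9, Cxcl12 or Cx3cl1, and windows of the other 4 ligands were not used here. The Cxcl9 window does hold gggatttcct, which differs from the consensus only in its last letter. Across 32526 distinct promoter windows of the same length, 3.92% held an NF-kB match, 2.98% the interferon element, 6.73% AP-1, 12.3% a TATA box (TATAAA) and 9.57% a C/EBP match (TTGCNNAA). TATAAA occurred in the Cxcl9 and Cx3cl1 windows and TTGCNNAA in none of the 6. A match is a string of letters and does not show that a factor was bound.

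The ligands of Ccr2, the receptor that draws inflammatory monocytes, both rose, but unequally. Ccl2 (MCP-1) stood at 1860, 2167 and 2753 CPM under pressure and at 423, 478 and 511 CPM in controls. Its lowest pressure library held over 3 times its highest control, and it rose by 2.26 ± 0.13 (adjusted p = 3.18e-07). Ccl7 (MCP-3), which also binds Ccr1 and Ccr3, stood at 101, 123 and 157 CPM under pressure and at 56.9, 67.8 and 72.5 CPM in controls. The groups did not overlap, but the pressure values spread widely (coefficient of variation 22.1%, against 12.2% in controls). Ccl7 rose by 0.95 ± 0.15 (adjusted p = 0.000225), and 10.7% of genes tested had a larger change. The pair lies on chromosome 11, Ccl2 at 82035571 to 82037453 and Ccl7 at 82045712 to 82047525, with 8.26 kb between them.

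The ligands of Cxcr3, a receptor of activated T and NK cells, went apart. Cxcl10 stood at 58.5, 57.0 and 67.5 CPM under pressure and at 18.7, 19.7 and 19.8 CPM in controls. All pressure values were near 3 times the controls, with a rise of 1.65 ± 0.096 (adjusted p = 3.11e-07). Cxcl9 stood at 10.3, 9.36 and 11.1 CPM under pressure and at 8.69, 9.55 and 10.97 CPM in controls. Its groups overlapped, and its log2 change of 0.08 ± 0.13 did not pass (adjusted p = 0.602; 95% interval -0.21 to 0.37). That interval leaves room for a change of up to 1.29-fold. Cxcl9 had no fixed sign: its change was -0.13 with library totals only, -0.034 with upper-quartile factors and -0.0012 without control replicate 1. Cxcl11, the third ligand of the receptor, had too few counts to test, with 0.0821 ± 0.0711 CPM under pressure and 0.0796 ± 0.0701 CPM in controls (SD, n = 3 each).

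Ccl5 (RANTES), a T-cell and monocyte attractant that binds Ccr1 and Ccr3, showed the smallest log2 change of the 10. It stood at 14.7, 14.9 and 14.6 CPM under pressure and at 13.9, 17.3 and 12.95 CPM in controls. The pressure values all fell inside the control range. The change was -0.0027 ± 0.12 (adjusted p = 0.986; 95% interval -0.28 to 0.27), and it took a positive sign under 7 of 18 alternatives, the largest being 0.13 without control replicate 2. Ccl5 lies on chromosome 11 as well (83525778 to 83530518, minus strand), beyond a gap of 1478252 bases from Ccl7.

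Cxcl12 (SDF-1), a homeostatic chemokine that binds Cxcr4 and the scavenging receptor Ackr3, rose modestly. Its values were 51.3, 48.9 and 54.0 CPM under pressure and 40.2, 35.8 and 39.1 CPM in controls. The groups did not overlap and the spread was small in both, with coefficients of variation of 4.95% under pressure and 5.98% in controls. The rise was 0.42 ± 0.086 (adjusted p = 0.00129). With library totals only it was 0.21 and no longer passed (adjusted p = 0.0578, against 4.76e-05 to 0.0578 over 18 alternatives); that setting lowers the median log2 change of all genes by 0.213. Cxcl12 lies on chromosome 6 (117168535 to 117181367).

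The membrane-anchored ligands carry their chemokine domain on a mucin stalk that ADAM proteases can cut. Cxcl16, the ligand of Cxcr6 on NKT cells that patrol the sinusoids, stood at 172, 188 and 255 CPM under pressure and at 290, 299 and 284 CPM in controls. All 3 pressure values were below all 3 controls, pressure replicate 3 being the nearest. Cxcl16 fell (-0.51 ± 0.13, adjusted p = 0.00439), and the change was -0.69 without that library. Cx3cl1 (fractalkine), the ligand of Cx3cr1, was close to the limit of detection at 0.685, 0.608 and 0.737 CPM under pressure and 1.30, 0.373 and 0.463 CPM in controls. These are 11, 10 and 9 deposited counts under pressure and 26, 7 and 7 in controls, so control replicate 1 alone set the control mean. The change was -0.13 ± 0.48 (adjusted p = 0.818; 95% interval -1.19 to 0.93), and 0.69 without control replicate 1 (adjusted p = 0.181, the smallest of its alternatives; the largest was 0.943). The 95% interval of the fold, 0.439 to 1.90, is wide, so these low and uneven counts leave room for a fall or a rise within it. On GRCm38, Cxcl16 lies on chromosome 11 (70453983 to 70459984, minus strand) and Cx3cl1 on chromosome 8 (94772009 to 94782427).

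**Figure D2:**
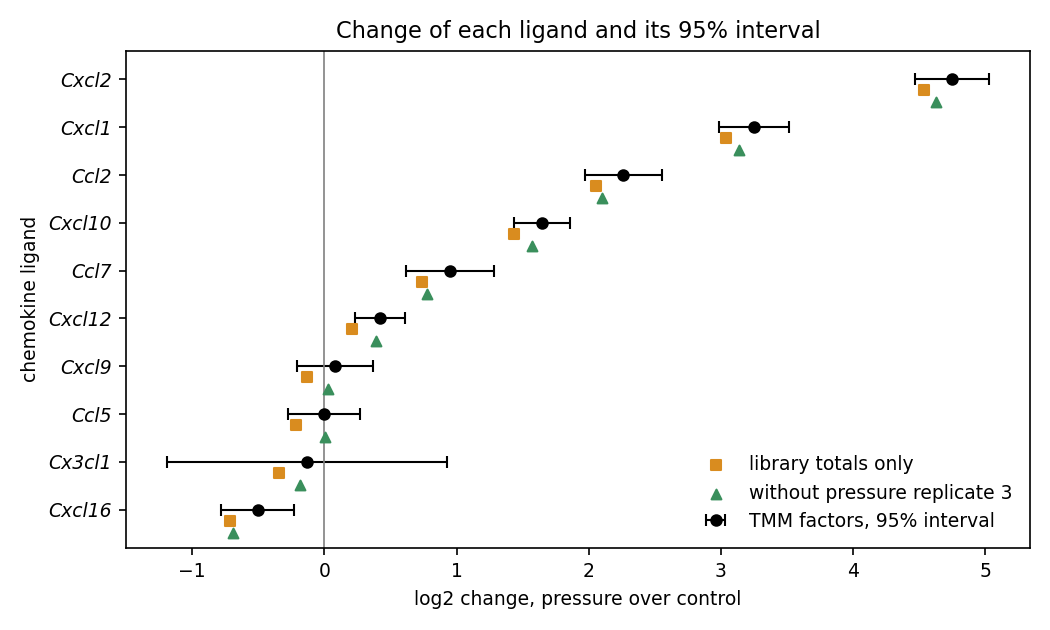
Log2 change of each ligand, pressure over control, as black points with 95% intervals (edgeR, TMM factors), with the value from library totals only (orange squares) and without pressure replicate 3 (green triangles). Intervals of Cxcl2, Cxcl1, Ccl2, Cxcl10, Ccl7 and Cxcl12 lie right of 0, that of Cxcl16 lies left of it, and Cx3cl1 has the widest, from -1.19 to 0.93.

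Pressure replicate 3 held the highest value of 9 of the 10 ligands, Ccl5 excepted, whereas 41.2% of all genes tested peaked in that library. It exceeded the mean of the other pressure libraries by a factor of 1.41 for Cxcl16, 1.40 for Ccl7, 1.37 for Ccl2, 1.28 for Cxcl2 and 1.26 for Cxcl1. This library also correlated least with its group (log CPM correlations of 0.987 and 0.989, against 0.994 between the other pair). Without it Cxcl2, Cxcl1, Ccl2, Cxcl10, Ccl7 and Cxcl12 were still called higher and Cxcl16 lower. Coefficients of variation of the 7 called ligands were 4.95% to 22.1% under pressure and 2.27% to 12.2% in controls, higher under pressure for each but Cxcl12. The 3 ligands not called went the other way. Their coefficients under pressure and in controls were 8.65% and 11.8% for Cxcl9, 1.09% and 15.4% for Ccl5, and 9.60% and 71.75% for Cx3cl1.

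Levels of different genes were compared per length, as CPM per kilobase of the longest coding transcript. Under pressure the order was Ccl2, Cxcl1, Ccl7, Cxcl2, Cxcl16, Cxcl10, Ccl5, Cxcl12, Cxcl9 and Cx3cl1. Ccl2 led with 2780 ± 558 CPM per kilobase and Cxcl1 followed with 495 ± 73.6. Ccl7 at 158 ± 35.0 and Cxcl2 at 111 ± 16.2 had overlapping ranges, and no other neighbours in that order did. In controls the order was Ccl2, Cxcl16, Ccl7, Cxcl1, Ccl5, Cxcl10, Cxcl12, Cxcl2, Cxcl9 and Cx3cl1, with no overlap between neighbours. Ccl2 again led, at 579 ± 54.7 CPM per kilobase, and Cxcl16 was second at 108 ± 2.78. Cxcl2 held place 4 under pressure and place 8 in controls. Among 12365 genes ranked by CPM per kilobase, Ccl2 held rank 7 under pressure and rank 75 in controls. Cxcl1 held rank 123 under pressure and 1302 in controls, and Cxcl2 rank 654 under pressure and 8260 in controls. Both orders were the same when all annotated exons served as length, a choice added after the data were seen. With that length the ranges of Ccl7 and Cxcl2 no longer overlapped under pressure, and those of Cxcl2 and Cxcl9 did in controls.

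The make-up of the ligand transcripts shifted accordingly. Summed CPM of the 10 ligands came to 3408 ± 632 under pressure and 968 ± 55.9 in controls (SD, n = 3 each). Without Ccl2 the sums were 1149 ± 178 CPM under pressure and 497 ± 14.1 CPM in controls. Counted per length, Ccl2 made up 74.9 ± 0.839% of the ligand transcripts under pressure and 65.9 ± 1.23% in controls. Cxcl1 made up 13.4 ± 0.536% under pressure and 5.93 ± 0.116% in controls, and Cxcl2 3.02 ± 0.199% under pressure and 0.472 ± 0.0477% in controls. Cxcl16 made up 2.05 ± 0.0792% under pressure and 12.3 ± 1.07% in controls. The share of Ccl7 was 4.26 ± 0.158% under pressure and 9.33 ± 0.418% in controls, although its CPM rose. With all annotated exons as length these shares moved by more than 1 SD but kept their direction: Cxcl1 made up 9.67% under pressure and 4.04% in controls, while under pressure and in controls Ccl7 made up 6.04% and 12.5%, Cxcl2 3.84% and 0.569%, Cxcl16 2.59% and 14.8%, and Ccl2 75.8% and 63.2%.

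**Figure D3:**
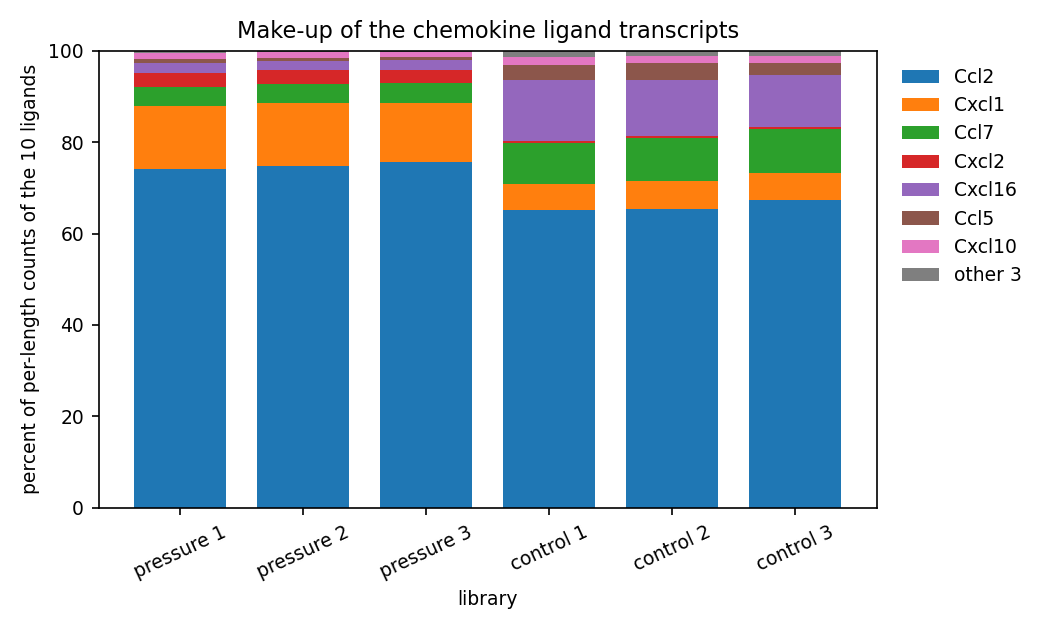
Percent of the summed per-length counts of the 10 ligands in each library, pressure libraries left of control libraries; other 3 stands for Cxcl12, Cxcl9 and Cx3cl1. Ccl2 takes most of every bar (74.9% on average under pressure and 65.9% in controls), and the Cxcl16 band is much thinner in pressure bars (2.05% on average) than in control bars (12.3%).

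Ratios of ligand pairs within a library do not depend on how libraries are scaled. Comparisons were made for 4 pairs, each sharing a receptor or a membrane-anchored form. The count of Cxcl2 was 0.459, 0.415 and 0.442 of that of Cxcl1 in pressure replicates 1 to 3, and 0.176, 0.150 and 0.142 in controls. Ccl7 was 0.0543, 0.0569 and 0.0569 of Ccl2 under pressure, and 0.134, 0.142 and 0.142 in controls. These ratios barely varied within a group, and the groups stood far apart. Cxcl9 was 0.177, 0.165 and 0.166 of Cxcl10 under pressure and 0.465, 0.485 and 0.554 in controls. In log2 units the ratios differed between pressure and control by 1.49 for Cxcl2 over Cxcl1, -1.31 for Ccl7 over Ccl2 and -1.56 for Cxcl9 over Cxcl10. Each gave an exact two-sided permutation p of 0.1, the smallest that 3 against 3 libraries allow (0.133 adjusted over the 4 pairs). Cx3cl1 over Cxcl16 overlapped between the groups (difference 0.67, exact permutation p = 0.4), and the difference was 1.20 without control replicate 1 and 0.311 without control replicate 2.

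**Figure D4:**
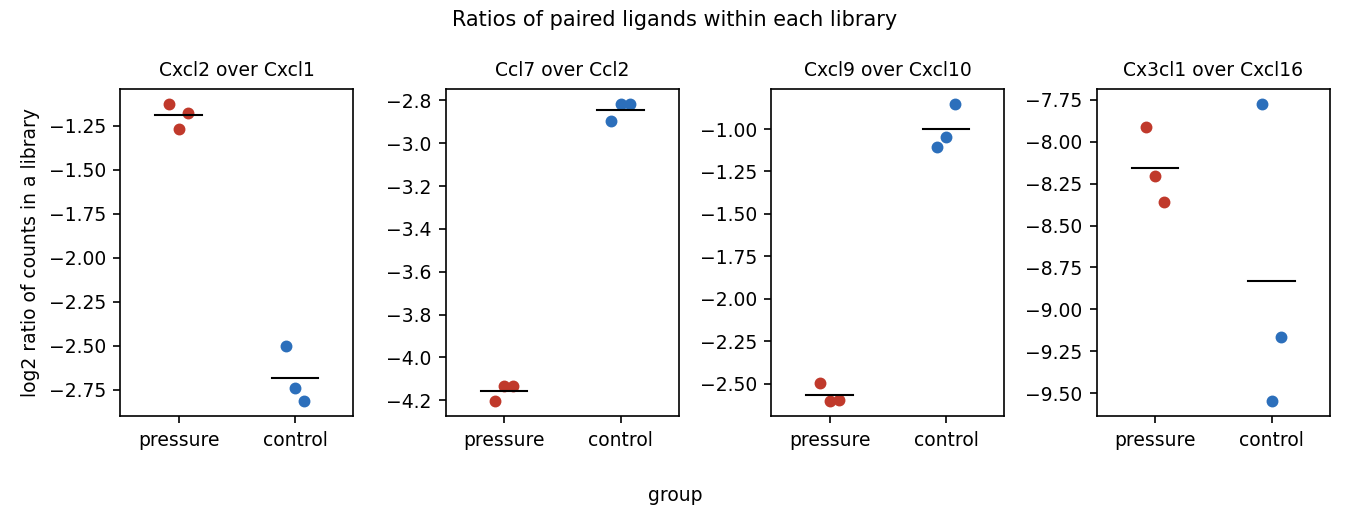
Log2 ratio of the counts of a ligand pair in each library, pressure (red) left of control (blue), black lines marking group means; each panel has its own axis. The first 3 pairs show groups that do not overlap, with pressure higher for Cxcl2 over Cxcl1 and lower for Ccl7 over Ccl2 and Cxcl9 over Cxcl10.

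The deposited counts of 4 ligands held fractions. Cxcl2 and Ccl2 were not whole in 4 of 6 libraries each, Cxcl16 in 3 and Cxcl1 in 1. The other 6 were whole in every library. The fractions were 0.5, and 0.75 once for Cxcl2. Across all detected genes, 18.2% to 21.7% had a fraction in a given library. Rounding moved no ligand value by more than 0.322%. As a guide to shared sequence, every 101-base window (the read length) of the ligands' GENCODE transcripts was looked for in transcripts of other genes. Cxcl2 shared 2.96% of its windows with Cxcl3, Cxcl16 shared 14.1% with Zmynd15, and Cxcl10 shared 1.35% with Art3. The other 7 ligands shared none. Ccl2 and Cxcl1, which held fractions, were among them, while Cxcl10 shared windows but was whole in every library. The source of the fractions was not tested. Gm17268, absent from the symbols listed, overlaps the Ccl2 span on the opposite strand, with 0 shared exonic bases. How the submitters' counter treated reads from shared windows is not given in the sources used here. Cxcl2, Cxcl16, Cxcl10 and their partners are uncertain to that extent.

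Zmynd15 and Art3 overlap their partners on the opposite strand, by 552 and 133 exonic bases. Without a stated strand setting for the counting, reads inside these overlaps cannot be assigned to 1 gene of the pair. Zmynd15 stood at 20.4 ± 2.44 CPM under pressure and 82.5 ± 1.008 CPM in controls (-2.02 ± 0.097, adjusted p = 1.10e-07). Its part in the Cxcl16 result was not tested. Art3 stood at 1.57 ± 0.271 CPM under pressure and 1.39 ± 0.228 CPM in controls (0.18 ± 0.25, adjusted p = 0.525), beside 61.0 ± 5.69 CPM under pressure and 19.4 ± 0.604 CPM in controls for Cxcl10. Cxcl3, which binds the same receptor as Cxcl2, rose at a low level, with 2.12 ± 0.156 CPM under pressure and 1.27 ± 0.153 CPM in controls (0.73 ± 0.22, adjusted p = 0.0120).

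Of 28 other chemokine ligand genes listed, 13 had enough counts to test, and 5 rose and 3 fell (all genes tested: 33.7% higher, 35.1% lower). This balance turned with the scaling, to 3 higher and 5 lower with library totals only and 4 higher and 5 lower with upper-quartile factors. The middle log2 change of the 13 was 0.01. Cxcl5, another neutrophil attractant, rose to 18.9 ± 1.31 CPM under pressure, against 10.4 ± 1.17 CPM in controls (0.86 ± 0.12). Ccl24, an eosinophil attractant, and Ccl9, a Ccr1 ligand, rose by 0.52 ± 0.12 and 0.26 ± 0.079, and Cxcl13, a B-cell attractant, and Cxcl3 completed the rises. Ccl9 no longer passed with library totals only, with upper-quartile factors or without control replicate 1, and without that library 3 genes of the list rose. Ccl3 and Ccl4, attractants of monocytes and T cells, fell (-0.41 ± 0.081 and -0.60 ± 0.13). Ccl6, the most abundant of these genes by CPM at 792 ± 71.9 under pressure and 903 ± 2.72 in controls, passed as lower by a small margin (-0.19 ± 0.075, adjusted p = 0.0426). That call was lost under 9 of 18 alternatives, among them leaving out pressure replicate 1 or 2 or any control. Cxcl15, Cxcl17 and Ccl26 had no count in any library.

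**Figure D5:**
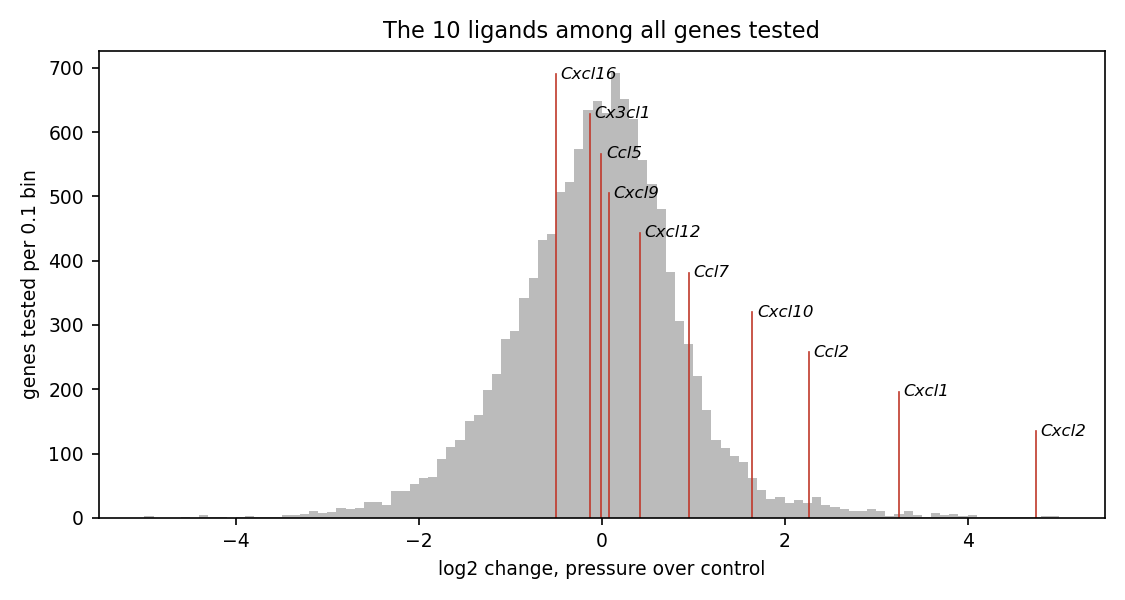
Histogram of the log2 change, pressure over control, of the 12892 genes tested (grey, 0.1 per bin, values beyond 5 placed in the end bins), with the 10 ligands marked by red lines whose heights only separate the labels. Cxcl2 lies at 4.75 in the sparse right tail, while Ccl5, Cxcl9 and Cx3cl1 lie in the bulk.

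Receptors were measured in the same cultures. Of 18 chemokine receptor genes 9 could be tested, and 4 rose and 1 fell (all genes tested: 33.7% higher, 35.1% lower). Ccr1, a receptor of Ccl5, Ccl7 and Ccl3, rose to 8.57 ± 0.230 CPM under pressure, against 2.91 ± 0.237 CPM in controls (1.55 ± 0.14, adjusted p = 4.44e-06). Ccr3, a receptor of eosinophils, rose at a low level, with 1.38 ± 0.177 CPM under pressure and 0.305 ± 0.130 CPM in controls (2.11 ± 0.35, adjusted p = 0.000309). Cxcr6, the receptor of Cxcl16, fell at a low level (1.10 ± 0.370 CPM under pressure and 1.90 ± 0.164 CPM in controls); it was not called with DESeq2, without pressure replicate 1 or without control replicate 1, and without pressure replicate 3 a second receptor was lower. Cxcr4 stood at 51.4 ± 10.04 CPM under pressure and 46.6 ± 2.95 CPM in controls (adjusted p = 0.336). The receptors of the strongest risers were scarce: Cxcr2 averaged 0.671 ± 0.276 CPM under pressure and 0.489 ± 0.111 CPM in controls, and Ccr2 was too low to test. Of 5 atypical receptors, which bind chemokines without classical signalling, Ackr1 rose by 0.59 ± 0.13 and Ackr3 from a low base by 2.96 ± 0.50, with 1.69 ± 0.802 CPM under pressure and 0.194 ± 0.111 CPM in controls. Macrophage markers, listed above, were abundant in the same libraries, and whether they or endothelial cells carried these receptor transcripts was not tested.

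Genes of the pathways that control inflammatory chemokines moved in different ways. Their counts stand beside 33.7% higher and 35.1% lower among all genes tested, and no list was tested as a set. Of 15 NF-kB subunits and feedback inhibitors 12 rose and 2 fell (median log2 change 0.59). Nfkbiz, a nuclear cofactor of NF-kB, rose by 1.98 ± 0.11, Nfkbib, an inhibitor, by 1.49 ± 0.090, Tnfaip3 (A20), which ends the signal, by 1.44 ± 0.11, and the subunit Relb by 1.00 ± 0.11. Nfkbia, the main inhibitor, rose to 369 ± 23.2 CPM under pressure, against 222 ± 11.6 CPM in controls. Nfkbid and Bcl3, which encode nuclear relatives of the inhibitors, fell (-1.62 ± 0.16 and -1.53 ± 0.17). By contrast, 10 of 16 regulators of the interferon response that induces Cxcl9 and Cxcl10 fell and 5 rose (median -0.36). Irf3 (-1.12 ± 0.11), Ifngr2 (-1.04 ± 0.13) and Ifnar1 (-0.93 ± 0.10), encoding a transcription factor and receptor subunits, fell. The 5 that rose were the kinase gene Jak2 (0.70 ± 0.083), the inhibitor genes Socs3 (1.02 ± 0.13) and Socs1 (0.74 ± 0.19), and 2 transcription factor genes. These were Irf1 (0.63 ± 0.10) and Irf9 (0.22 ± 0.071), so the list mixes activators and inhibitors in both directions of change.

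Chemokine mRNAs carry AU-rich elements that bind decay and stability factors, and 6 of 9 such factor genes rose while 1 fell (median 0.32). Zfp36 (tristetraprolin), which promotes decay, rose by 0.90 ± 0.12, its relative Zfp36l2 by 1.02 ± 0.082, and Hnrnpd (AUF1) by 0.92 ± 0.074. Elavl1 (HuR), a stabilizer, rose by 0.32 ± 0.085 but did not pass when scaled by library totals (0.10), and Tia1 fell (-1.05 ± 0.10). Of 9 tested proteases known to cut chemokines 4 fell and 3 rose (median -0.33), near the 35.1% lower and 33.7% higher of all genes tested. Dpp4, which trims the amino end of Cxcl10 and Cxcl12, fell (-0.79 ± 0.10), as did Adam10, a sheddase of Cxcl16 and Cx3cl1 (-0.35 ± 0.10). Ctsl, encoding cathepsin L, rose to 5399 ± 151 CPM under pressure, against 3468 ± 33.4 CPM in controls. Among 14 heparan sulfate proteoglycan and synthesis genes 7 rose and 3 fell (median 0.34), and 5 were lower with upper-quartile factors or library totals only. The core protein gene Sdc3 fell (-1.18 ± 0.074), and Glce, an epimerase of heparan sulfate, and Ext1, a chain polymerase, rose by 1.45 ± 0.13 and 0.94 ± 0.099.

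The genes whose 6-library profiles lay closest to the 3 most changed ligands were found by Euclidean distance between log2 CPM values centred on each gene's mean, over 9712 genes. With most variation lying between the groups, this measure mainly matches the size of the change. Closest to Cxcl2 were Mt2 (distance 0.649), a metallothionein, Sele (0.937), the adhesion molecule E-selectin, and Phlda1 (1.31). Igfbp3 (0.376), an insulin-like growth factor binding protein, Bcat1 (0.539), a branched-chain aminotransferase, and Arid5a (0.570), an RNA-binding protein, were closest to Cxcl1. Closest to Ccl2 were Apln (0.325), the vascular peptide apelin, Acot2 (0.332), a mitochondrial thioesterase, and the noncoding Snhg17 (0.421). By the same measure Cxcl1 was 1.83 from Cxcl2 and 1.22 from Ccl2.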

How the data were processed

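For 6 libraries the authors deposited expected counts by gene symbol, some with fractions, made from a stranded mRNA kit with single reads of 101 bases per the labels' protocols. TopHat2 2.2.1, Cufflinks 2.2.1 and mm10 are named in the submitters' processing notes, without roles. Which tool counted, with which strand setting and gene models, is not given in the sources used here. Samples were grouped by title. Counts were rounded, and filterByExpr (minimum count 10, minimum total 15, groups of 3) kept 12892 genes. The pressure and control groups were compared in edgeR 4.0.16 under R 4.3.3, by two-sided quasi-likelihood F-tests with TMM factors (0.909 to 0.946 under pressure, 1.07 to 1.08 in controls), no covariates and Benjamini-Hochberg adjustment over all genes; the threshold was 0.05. A standard error is the log2 change divided by the square root of F. No 2 libraries of a group agreed within sampling noise (chi-square per degree of freedom at least 2.96). Pair ratios used counts plus 0.5 and exact permutation tests (scipy 1.17.1). Lengths and loci came from GENCODE M21.

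The ligands and the gene lists were chosen with earlier results of these data known. All 10 ligands are named. Of each other list, up to 6 called genes with at least 5 CPM and the smallest p could be named. Where none passed, the 2 most abundant could be named. For the 3 most changed ligands, the 3 closest profiles are named. Others named, to complete a count of 5 or fewer, as listed at 0 or as partners of a ligand (Ccr3, Cxcr6, Cxcr4, Cxcr2, Ccr2, Ackr3, Bcl3, Cxcl3, Cxcl11, Cxcl13, Cxcl15, Cxcl17, Ccl26, Des, Acta2, Zmynd15 and Art3), were chosen after their values were seen. The same holds for Irf1, Irf9 and Socs1. Alternatives were DESeq2 1.42.0, limma-voom (limma 3.58.1), other scaling factors, filters, rounding, a stricter threshold, a block for the sample number, dropping the 50 genes with the most counts, and omitting each sample in turn. Some genes of the lists are counted but not reported here by name.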

Additional observations from a re-analysis of the deposited data

How the results depend on the processing

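Calls of Cxcl2, Cxcl1, Ccl2, Cxcl10, Ccl7 and Cxcl16 kept their direction and passed under all 18 alternatives each, with log2 changes of 4.54 to 4.82, 3.04 to 3.35, 2.05 to 2.39, 1.44 to 1.70, 0.74 to 1.09 and -0.71 to -0.39. Cxcl12 (0.21 to 0.46) lost its call with library totals only (0.207, adjusted p = 0.0578), which left 5 ligands called higher in place of 6; that setting moves the median log2 change of all genes by -0.213 and upper-quartile factors by -0.113. The 3 ligands that did not pass in the main comparison passed under none of their alternatives, and their signs varied. Cxcl9 was -0.0336 with upper-quartile factors, -0.134 with library totals only and -0.0012 to 0.17 with a sample left out. Ccl5 was 0.0196 with DESeq2, 0.0064 with limma-voom, 0.0191 with RLE factors, 0.0048 with the sample number as a block and -0.086 to 0.127 with a sample left out (0.0003 and 0.0049 without pressure replicate 1 and 3). Cx3cl1 was 0.105 with limma-voom and -0.46 to 0.685 with a sample left out, and could not be tested with a minimum mean of 5 CPM. Art3 was -0.0294 and Marco, a macrophage marker, -0.003 with library totals only. The cause of these changes was not tested. Whether the sample numbers pair the libraries is not in the labels used here. Same-numbered samples had correlations of their deviations from the group means of 0.129, -0.23 and -0.134. Differently numbered samples ranged from -0.17 to 0.292, so these values do not settle it. With the replicate block 6 ligands were called higher and 1 lower, as without it, and 1 macrophage marker higher in place of 2. The ratios of Cxcl2 over Cxcl1, Ccl7 over Ccl2 and Cxcl9 over Cxcl10 kept their direction with other rounding, a pseudocount of 5 and each sample left out, while Cx3cl1 over Cxcl16 ranged between 0.311 and 1.20. Per-length shares of 9 ligands moved by more than 1 SD in at least 1 group with all annotated exons as length. Cx3cl1 had 7 to 26 counts per library; intervals cover the spread between these libraries.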
